A study of Homo sapiens with 7 samples.

Results

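Integrin subunit genes were compared between 501Mel melanoma cells that carried a control hairpin and cells that carried either of a pair of hairpins against GRASLND, a long non-coding RNA. The 10 listed subunits were ITGA1, ITGA2, ITGA3, ITGA4, ITGA6, ITGA10, ITGAV, ITGB1, ITGB3 and ITGB8, taken from the deposited table by gene name. Of these, 8 were measured among 21305 genes, all 8 passed the minimum mean normalized count of 10 that 15420 genes passed, and ITGA4 and ITGB3 were not analysed here. The subunits were chosen with earlier results of these data known, and ITGA10 was selected on its difference between the hairpins, so all values of the 8 genes are descriptions and carry no p-value.

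501Mel is a human melanoma cell line with melanocytic features. Cells stably transduced with a doxycycline-inducible hairpin formed 3 groups: shlacZ, the control (n = 3 libraries), sh4 (n = 2) and sh8 (n = 2). The hairpins came in a lentiviral Tet-pLKO-puro vector, and transduced cells were kept as puromycin-selected pools, not as clones. Hairpin expression was induced with 2 µg/mL doxycycline for 72 h in all 3 groups, the control included. Libraries of uninduced cells were not analysed here.

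Integrins are membrane receptors made of an alpha and a beta chain, and they join the extracellular matrix to the actin cytoskeleton. ITGA1, ITGA2 and ITGA10 are alpha chains of collagen receptors and pair with ITGB1. ITGA3 and ITGA6 are alpha chains of laminin receptors. ITGAV pairs with several beta chains, ITGB8 among them, and binds ligands with an RGD motif, including latent TGF-beta. In melanoma, integrins are known for their part in adhesion and migration, while ITGA10 is best known from cartilage cells.

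The 3 genes whose levels lay outside the control range in all 4 knockdown libraries were ITGA10, ITGA1 and ITGB8, and for that reason the starts of these genes are shown. Each sequence runs 5′ to 3′ on the gene's own strand, from 250 bases before the RefSeq start site to 50 after it (GRCh38.p14). Capitals mark matches, on either strand, to the 5 motifs searched: AP-1 (TGANTCA), TEAD (GGAATG), LEF1/TCF (CTTTGA), E-box (CANGTG) and SMAD (CAGAC). ITGA10 lies on the minus strand at chr1:145910001-145910300, ITGA1 on the plus strand at chr5:52787666-52787965, and ITGB8 on the plus strand at chr7:20330650-20330949.
ITGA10: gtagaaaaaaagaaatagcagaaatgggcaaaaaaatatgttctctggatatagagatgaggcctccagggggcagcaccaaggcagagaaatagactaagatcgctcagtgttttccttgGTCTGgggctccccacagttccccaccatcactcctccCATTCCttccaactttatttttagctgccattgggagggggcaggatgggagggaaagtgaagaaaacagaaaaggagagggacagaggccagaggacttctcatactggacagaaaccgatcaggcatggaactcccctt
ITGA1: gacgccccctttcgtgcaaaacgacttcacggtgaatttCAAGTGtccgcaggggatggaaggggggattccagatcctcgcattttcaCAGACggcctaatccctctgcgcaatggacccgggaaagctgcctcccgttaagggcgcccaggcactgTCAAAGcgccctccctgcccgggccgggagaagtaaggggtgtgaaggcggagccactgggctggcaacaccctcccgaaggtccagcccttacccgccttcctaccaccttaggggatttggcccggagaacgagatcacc
ITGB8: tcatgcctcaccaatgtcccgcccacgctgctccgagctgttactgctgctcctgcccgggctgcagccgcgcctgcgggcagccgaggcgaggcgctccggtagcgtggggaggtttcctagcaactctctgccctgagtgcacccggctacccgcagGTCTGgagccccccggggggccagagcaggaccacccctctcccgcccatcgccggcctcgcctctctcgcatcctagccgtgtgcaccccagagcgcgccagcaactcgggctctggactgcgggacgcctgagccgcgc

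The ITGA10 sequence held a TEAD match whose first base was 91 bases before the start site and a SMAD match 129 bases before it. ITGA1 held an E-box match at 211, a SMAD match at 161 and a LEF1/TCF match at 92 bases before its start, and ITGB8 held a single SMAD match at 91 bases. Among 35116 RefSeq promoters of the same length, AP-1 matched 7.71%, TEAD 14%, LEF1/TCF 12.9%, E-box 42% and SMAD 45.3%, so E-box and SMAD matches are common in windows of this length. The G+C content was 48.7% for ITGA10, 61.7% for ITGA1 and 71.7% for ITGB8. A match is a run of letters and does not show binding. Of the 8 measured subunits, 7 had an entry in the promoter table (ITGA3 did not).

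GRASLND, the hairpins' target, was measured first as a check of the labels. It stood at normalized counts of 309, 330 and 290 in shlacZ. With sh4 it stood at 175 and 131, and with sh8 at 227 and 163, all below the lowest control. GRASLND fell to 49.5% of control under sh4 (log2 difference -1.02, limma adjusted p = 0.0066), whereas the 63.0% under sh8 did not pass the test (-0.68, adjusted p = 0.11). Without sh4 replicate 2, GRASLND fell short of the call (log2 difference -0.816, limma adjusted p = 0.0774), and without shlacZ replicate 2 it was short of the fold threshold (-0.975). The hairpins did not differ from each other in GRASLND (-0.34, 95% interval -0.84 to 0.16, limma adjusted p = 0.42).

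The libraries held 13337317 to 22855232 reads assigned to genes. All 7 melanocyte markers listed (MITF, SOX10, MLANA, PMEL, TYR, DCT and TYRP1) were expressed, and their summed normalized counts were 135575 to 146343 in shlacZ, 51868 to 59737 in sh4 and 101544 to 104484 in sh8. These sums were lower with the hairpins, most under sh4, but TYR did not follow them (mean 8803 in shlacZ, 9736 in sh4 and 10257 in sh8) and MITF stood at 91.2% of control under sh8. The part of these markers in the integrin values was not tested. shlacZ replicate 1 was farther from the other control libraries (mean chi-square per gene 31.7 and 30.8) than those were from each other (9.47). By the same measure the sh4 libraries stood at 21.1 from each other and the sh8 libraries at 18.0. Results that rest on shlacZ replicate 1 are given without it. The labels do not say that replicates were separate cultures, so the p-values below measure the spread between these libraries, which may be technical. In bulk RNA, fewer cells of a kind and less RNA per cell cannot be told apart.

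Differences are given on the log2(normalized count + 1) scale with the standard error of the limma fit. A gene was called when its Benjamini-Hochberg adjusted p, over all 15420 genes, was below 0.05 and the difference exceeded 1. Under sh4, 4 of the 8 subunits met this call, all higher, where 4.79% of all genes were called higher and 3.37% lower. For sh8 the calls were 2 higher and 1 lower, beside 0.649% higher and 0.506% lower over all genes. Between sh4 and sh8, 4 were called higher in sh4, with 1.93% of all genes called higher and 1.26% lower. With the hairpins pooled against shlacZ, 1 was called higher, with 1.3% of all genes called higher and 0.694% lower. Because the subunits were chosen with these contrasts known, nothing is read from these counts. The median difference of the 8 subunits was 0.78 under sh4 and 0.17 under sh8, beside -0.01 in each over all genes tested.

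**Figure D1:**
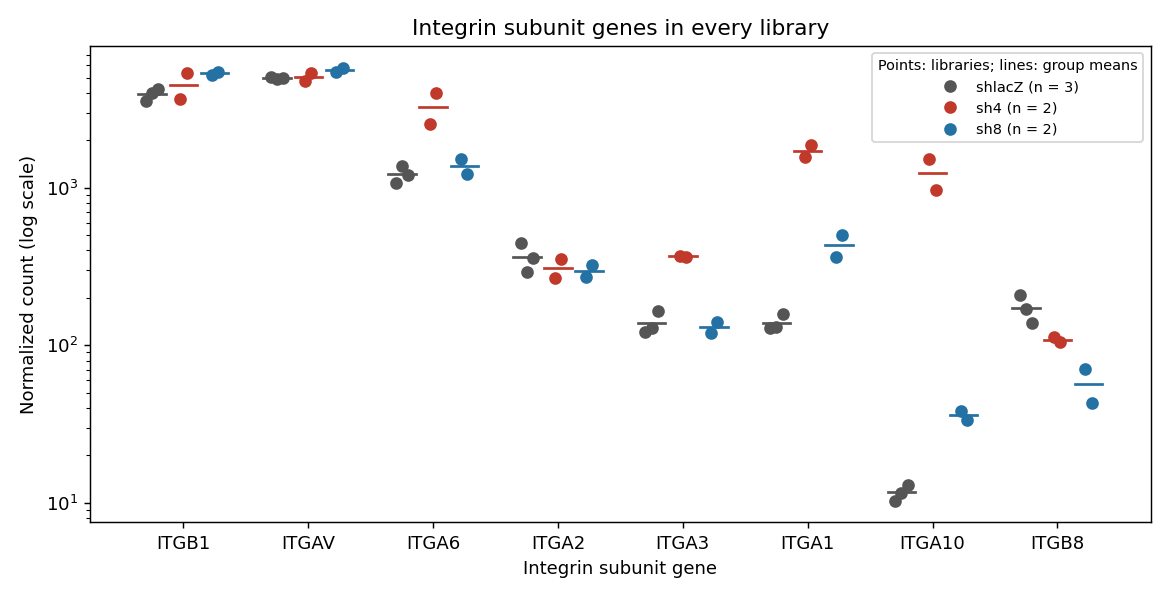
Normalized counts (log axis) of the 8 measured integrin subunit genes in each of the 7 libraries, with points for libraries and lines for group means (shlacZ n = 3, sh4 n = 2, sh8 n = 2). ITGA10 spans from 10.3 in a control library to 1522 in an sh4 library, while ITGAV stays between 4744 and 5795 in all 7.

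Among the collagen-binding alpha chains, ITGA10 showed the widest range of the 8 subunits on the log2 scale. ITGA10 (ENSG00000143127, chromosome 1, 145891208 to 145910111, minus strand, GENCODE 44 on GRCh38) had normalized counts of 10.3, 11.5 and 13.05 in shlacZ, 1522 and 975 in sh4, and 38.2 and 33.7 in sh8. The control values rested on 10, 11 and 15 reads and the sh8 values on 29 and 37 reads, against 1348 and 1306 reads in sh4. No group overlapped another, and the order was shlacZ, sh8, sh4. The mean under sh4 was 107 times the control mean (log2 difference 6.60 ± 0.28, SE) and that under sh8 was 3.09 times the control mean (1.55 ± 0.28). The sh4 libraries lay above the sh8 libraries by 5.05 ± 0.30, a 34.7-fold ratio of means. By size of difference ITGA10 ranked 3 of 15420 genes under sh4 and 120 under sh8. Its sh8 call was lost without shlacZ replicate 2, sh8 replicate 1 or sh8 replicate 2, by limma-voom on recovered reads, with only the shlacZ and sh8 libraries in the fit, and with the variance trend off, 6 of 18 alternatives in all, and its pooled difference of 4.08 ± 1.23 was not called, the hairpins lying far apart within the pooled group.

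ITGA1 (ENSG00000213949, chromosome 5, 52787916 to 52959209, plus strand) followed the same order at a higher control level. Its normalized counts were 129, 130 and 157 in shlacZ, 1561 and 1858 in sh4, and 361 and 500 in sh8. Every knockdown library exceeded every control library, and the sh4 libraries exceeded the sh8 libraries. The ratio of means to control was 12.3 under sh4 (3.61 ± 0.18) and 3.10 under sh8 (1.61 ± 0.18), and sh4 lay 2.00 ± 0.20 above sh8. ITGA1 was the member called with the hairpins pooled (2.61 ± 0.51), and that call was lost without any 1 of the 3 shlacZ libraries or without sh4 replicate 1, where the difference stayed above 2.

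ITGA1 starts at the same base and on the same strand as PELO, a gene for a ribosome rescue factor that lies within the ITGA1 locus (52787916 to 52804044). Reads in shared exonic sequence are split between such genes by estimate, so both are uncertain to that extent. PELO rose under sh4 (log2 difference 1.61, limma adjusted p = 0.0045) and had a difference of 0.08 under sh8 (adjusted p = 0.92), whereas ITGA1 was above control in both. Antisense genes overlap ITGA1 (PELO-AS1), ITGA6 (PDK1-AS1), ITGB1 (ITGB1-DT) and ITGB8 (ITGB8-AS1), and although the kit marks strand, the strand setting of the counting was not given, so these values are uncertain where the genes overlap. Each had a group mean of at most 12.9 normalized counts in any group, and ITGB8-AS1 stood at means of 7.51 in shlacZ, 8.43 in sh4 and 1.57 in sh8.

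ITGA2 (ENSG00000164171, chromosome 5, 52989340 to 53094779, plus strand) begins 30131 bases beyond the end of ITGA1 and encodes another collagen receptor alpha chain. Its normalized counts were 444, 292 and 358 in shlacZ, 267 and 355 in sh4, and 272 and 321 in sh8. The groups overlapped in each comparison. The difference from control was -0.22 under sh4 (95% interval -0.69 to 0.25) and -0.28 under sh8 (-0.75 to 0.19).

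Genes near ITGA10 gave other values than ITGA10 itself. RBM8A, an exon junction complex gene 11445 bases away, had a difference of 0.44 under sh4 (limma adjusted p = 0.13). PIAS3, which encodes an inhibitor of STAT signalling 31372 bases away, rose by 1.29 under sh4 (limma adjusted p = 0.00085).

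The listed laminin receptor alpha chains, ITGA3 and ITGA6, separated from control under sh4 but not under sh8. ITGA3 (ENSG00000005884, chromosome 17, 50055968 to 50090481, plus strand) had normalized counts of 121, 128 and 165 in shlacZ, 369 and 365 in sh4, and 120 and 141 in sh8. The sh4 libraries lay above all others, and sh8 and control overlapped. The ratio to control was 2.66 under sh4 (1.42 ± 0.20), and the sh8 difference was -0.07 (95% interval -0.51 to 0.37). The direct difference of sh4 from sh8 was 1.49 ± 0.22, and its call was lost without sh4 replicate 2.

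ITGA6 (ENSG00000091409, chromosome 2, 172427354 to 172506459, plus strand) had normalized counts of 1066, 1379 and 1207 in shlacZ, 2526 and 3972 in sh4, and 1518 and 1218 in sh8. Here too both sh4 libraries were above the others, although they differed from each other more than the controls did. The ratio to control was 2.67 under sh4 (1.39 ± 0.20), and the sh8 difference was 0.17 (95% interval -0.27 to 0.61). The sh4 libraries exceeded the sh8 libraries by 1.22 ± 0.22, or by 0.89 without sh4 replicate 2, and the call was lost without that library or without sh8 replicate 2.

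The alpha chain ITGAV (ENSG00000138448, chromosome 2, 186590010 to 186680901, plus strand) had normalized counts of 5045, 4927 and 5011 in shlacZ, 4744 and 5316 in sh4, and 5428 and 5795 in sh8. The sh8 libraries were above the controls and the sh4 libraries spanned them. The differences were 0.01 (95% interval -0.23 to 0.25) under sh4 and 0.17 (-0.07 to 0.41) under sh8.

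ITGB1 (ENSG00000150093, chromosome 10, 32887273 to 33005792, minus strand), the shared beta chain of the collagen and laminin receptors, had normalized counts of 3533, 4007 and 4223 in shlacZ, 3648 and 5345 in sh4, and 5209 and 5467 in sh8. The sh4 libraries spanned the control range and more, and the sh8 libraries were above it. The differences were 0.18 (95% interval -0.18 to 0.53) under sh4 and 0.45 (0.09 to 0.81) under sh8. Neither was called.

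ITGB8 (ENSG00000105855, chromosome 7, 20330702 to 20415754, plus strand), the beta chain that joins ITGAV in a receptor for latent TGF-beta, went the other way. Its normalized counts were 207, 170 and 137 in shlacZ, 113 and 104 in sh4, and 71.2 and 42.8 in sh8. All 4 knockdown libraries were below all controls, and the sh8 libraries were below the sh4 libraries. ITGB8 thus lay farther from control under sh8, whereas ITGA10 and ITGA1 lay farther from control under sh4. The mean was 63.4% of control under sh4 (-0.63 ± 0.27, not called) and 33.2% under sh8 (-1.60 ± 0.27), and the sh8 call was lost without shlacZ replicate 2 or sh8 replicate 2. The direct difference between the hairpins was 0.96 (95% interval 0.30 to 1.63) and was not called.

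**Figure D2:**
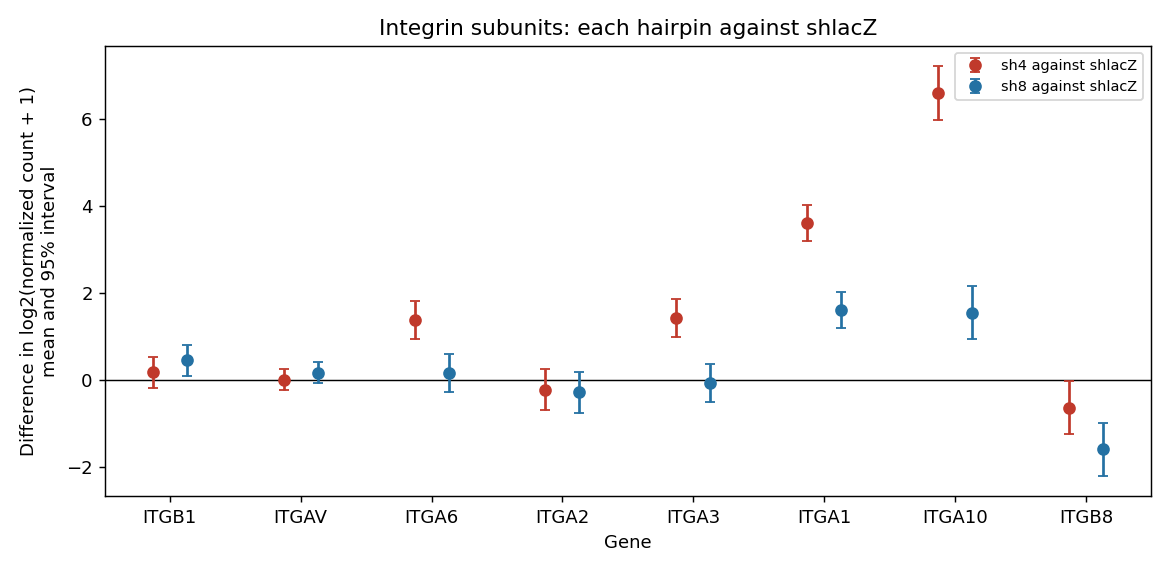
Difference from shlacZ in log2(normalized count + 1) of the 8 subunits under sh4 and sh8, with the 95% interval of the limma fit. Under sh4, ITGA10 (6.60), ITGA1 (3.61), ITGA3 (1.42) and ITGA6 (1.39) lie above 0, and ITGB8 lies below 0 under both hairpins (-0.63 and -1.60).

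To set the subunits beside each other, normalized counts were divided by the length of the Ensembl canonical transcript in kb. In shlacZ the order of levels per kb was ITGB1 (1050), ITGAV (710), ITGA6 (209), ITGA2 (46.5), ITGA3 (28.2), ITGB8 (19.1), ITGA1 (12.9) and ITGA10 (2.27), and no neighbours in this order overlapped across libraries. Under sh4, ITGA10 (243 per kb) and ITGA1 (159 per kb) stood ahead of ITGA3 (75.1), ITGA2 (39.6) and ITGB8 (12.1), and behind ITGB1 (1204), ITGAV (715) and ITGA6 (559), of which ITGAV and ITGA6 overlapped. Under sh8, ITGA1 (40.1 per kb) stood beside ITGA2 (37.8), with overlapping libraries, and ITGA10 (7.01) stood beside ITGB8 (6.35), again overlapping. With the union of all annotated exons as the length, a choice made after seeing the data, ITGA10 kept its rank in each group, but ITGA6 came first under sh4, ITGA2 passed ITGA3 under sh4, and ITGA2 passed ITGA1 under sh8.

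Summed per kb, the 5 listed alpha chains of the collagen and laminin receptors (ITGA1, ITGA2, ITGA3, ITGA6 and ITGA10, without ITGAV) reached 279 to 315 in shlacZ, 986 and 1166 in sh4, and 361 and 332 in sh8. ITGA7, a laminin receptor alpha chain outside the listed subunits, was not included, so the sums and shares hold for these 5 chains only. The normalized counts of ITGA7 were 901, 384 and 388 in shlacZ, 428 and 284 in sh4, and 240 and 222 in sh8. ITGA6 made up the largest share of the sum of the 5 chains in every library, from 44.1% to 75.3%. The share of ITGA10 was 0.713% to 0.836% in shlacZ, 30.1% and 16.3% in sh4, and 2.06% and 1.98% in sh8. The collagen receptor chains together held 16.4% to 25.3% of the sum in shlacZ, 48.3% and 35.0% in sh4, and 21.0% and 28.3% in sh8, the sh8 range overlapping the control range.

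**Figure D3:**
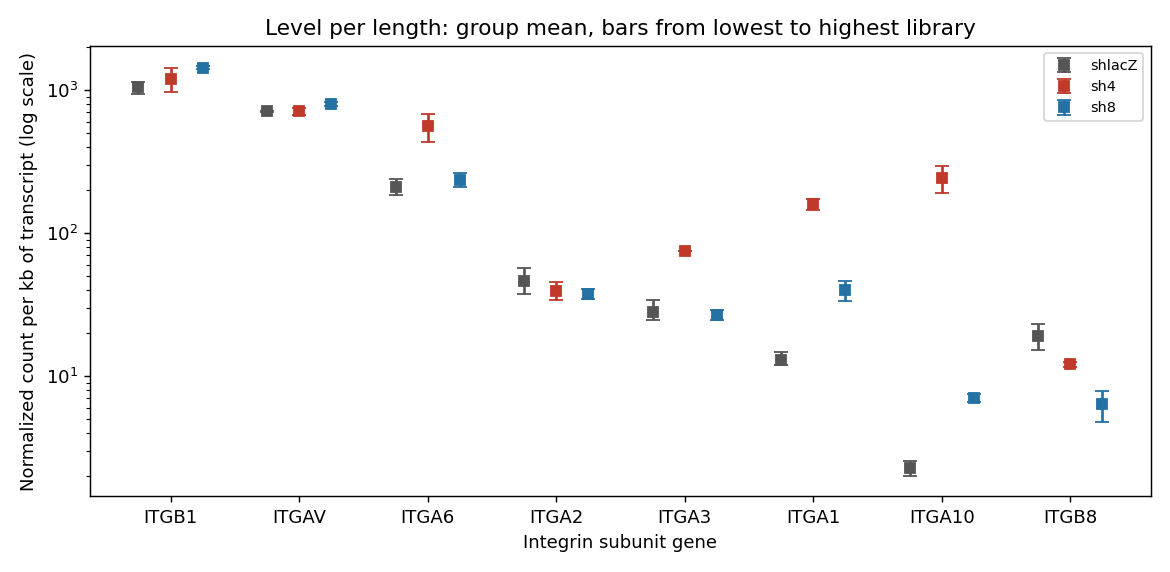
Normalized count per kb of canonical transcript (log axis) of the 8 subunits by group, with squares for group means and bars from the lowest to the highest library. ITGA10 is the lowest subunit in shlacZ (2.27) and stands at 243 under sh4, between ITGA6 (559) and ITGA1 (159).

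Over the 7 libraries and 15420 genes, the genes whose centred log2 profile differed least from that of ITGA10 were LYZ (root mean square difference 0.81), ADAM19 (0.87), LMO2 (0.91), PRDM1 (0.96) and GZMA (0.97). LYZ encodes lysozyme and GZMA granzyme A, both best known from leukocytes, ADAM19 is a metalloprotease, and LMO2 and PRDM1 are regulators of transcription in blood cells. LMO2 had a mean normalized count of 19.6 in shlacZ, 805 in sh4 and 64.9 in sh8, and LYZ had 1.98, 414 and 6.28. GZMA was at 0 in all shlacZ and sh8 libraries and at 74.5 and 166 in the sh4 libraries. Only genes with a mean of at least 10 were ranked, and LYZ, ADAM19, PRDM1 and GZMA passed that minimum only through sh4. ADAM19 had means of 1.63 in shlacZ and 8.05 in sh8, and PRDM1 had 1.33 and 4.25. The list thus leans to genes high in sh4 and is a description. Of the 4 leukocyte markers listed, CD68 was analysed, and its summed level was 493 to 675 in shlacZ, 441 to 577 in sh4 and 568 to 671 in sh8.

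As ITGA10 is known from cartilage, chondrocyte markers were read as well. Of 10 listed, 4 were analysed (MATN3, COL9A1, ACAN and MATN1), with summed normalized counts of 112 to 171 in shlacZ, 399 to 479 in sh4 and 206 to 247 in sh8. MATN3, a cartilage matrix protein, rose under sh4 (2.57, limma adjusted p = 0.00011) and under sh8 (1.34, adjusted p = 0.013). COL9A1 had a difference of -0.78 under sh4 (limma adjusted p = 0.25), and ACAN, the cartilage proteoglycan aggrecan, had mean normalized counts of 1.67, 1.87 and 3.75 in shlacZ, sh4 and sh8. The part of such cells or such a state in the ITGA10 values was not tested.

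The other genes of the pathway were taken from lists of integrin subunits, adhesion complex proteins, membrane partners and ligands. Of 109 listed genes 83 were in the table and 70 were tested. Under sh4 12 rose and 1 fell, beside calls of 4.79% higher and 3.37% lower over all genes. Under sh8 2 rose (0.649% of all genes), and between the hairpins 4 were higher in sh4 (1.93% of all genes). ITGAX, LAMB3 and CD82, counted among the 12 and among the 4, passed the minimum mean only through sh4 and could only be called higher there. The same holds for FBN1, counted among the 12. The counts for the single lists below rest on few genes each, are to be read against the same shares, and single out no list. The median difference of the 70 genes was 0.22 under sh4 and 0.04 under sh8, beside -0.01 over all genes. The sh4 count rested in part on 1 library: without sh4 replicate 2 it was 3 instead of 13.

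Of the other integrin subunits, 5 were tested. ITGA9, an alpha chain that binds tenascin and VCAM1, rose under sh8, with normalized counts of 860, 625 and 679 in shlacZ and 1501 and 1463 in sh8 (1.05, limma adjusted p = 0.013). Under sh4 it was at 1247 and 927 (0.59, adjusted p = 0.035), below the fold threshold, and the difference between the hairpins did not pass (-0.46, adjusted p = 0.18). ITGAX, a leukocyte alpha chain, rose under sh4 from 9.29, 1.05 and 7.83 to 50.8 and 41.8 (3.04). It was at 0 and 3.64 in sh8, and sh4 lay above sh8 by 4.45. ITGAX passed the minimum mean only through sh4, so its calls could only be higher in sh4 and are a description. The ITGAX call against control was lost with a pseudocount of 0.1 and without shlacZ replicate 2, sh4 replicate 1 or sh4 replicate 2, its call between the hairpins without either sh4 library or sh8 replicate 1, and the ITGA9 call was lost without shlacZ replicate 2, sh8 replicate 1 or sh8 replicate 2.

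Inside the cell, 2 of 27 adhesion complex genes rose under sh4, a count near the 4.79% of all genes called higher. At an adjusted p below 0.05 and any fold change, 7 of the 27 were higher and 3 lower. Over all 15420 genes, 1624 were higher and 1840 lower at that threshold. ACTN4, which crosslinks actin, stood at 2822, 4324 and 3929 in shlacZ and at 6669 and 9051 in sh4 (1.10, limma adjusted p = 0.0035). BCAR1, the scaffold p130Cas, stood at 187, 311 and 323 in shlacZ and at 483 and 652 in sh4 (1.08, adjusted p = 0.013). Neither passed the fold threshold without shlacZ replicate 1 (0.91 and 0.82) or without sh4 replicate 2 (0.88 and 0.86). Under sh8 limma called 0 of the 27, with 5 at an unadjusted p below 0.05 and 0 called by limma-voom.

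Of 12 membrane partners of integrins, 3 rose under sh4, beside 4.79% of all genes. CAV1, which coats caveolae, rose from 432, 471 and 579 to 1283 and 1693 (1.59, limma adjusted p = 0.00033), stood at 852 and 999 in sh8 (0.91, adjusted p = 0.024), and was called with the hairpins pooled (1.25, adjusted p = 0.019). CD82, a tetraspanin, rose from 9.29, 12.6 and 9.57 to 38.4 and 121 (2.61) and was higher in sh4 than in sh8 (3.10). CD82 passed the minimum mean only through sh4, so its calls could only be higher in sh4 and are a description. PLAUR, the urokinase receptor, rose from 18.6, 15.7 and 21.7 to 47.4 and 57.5 (1.45, limma adjusted p = 0.021). Without sh4 replicate 2 the CD82 and PLAUR calls were lost. PLAUR was also lost without shlacZ replicate 2 or sh4 replicate 1. Between the hairpins, CD82 was lost without sh4 replicate 2 or either sh8 library. Pooled CAV1 was lost without shlacZ replicate 2, shlacZ replicate 3 or sh4 replicate 1.

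On the ligand side, 4 of 9 tested laminin chains rose and 1 fell under sh4, beside 4.79% and 3.37% of all genes. LAMB1 rose from 1246, 1881 and 1648 to 3128 and 5047 (1.34, limma adjusted p = 0.0022). It stood at 3140 and 3070 in sh8, a difference of 0.98 (adjusted p = 0.040) just under the fold threshold, and was called with the hairpins pooled (1.16, adjusted p = 0.018). LAMB2 rose from 1026, 1024 and 987 to 2171 and 2352 (1.16, limma adjusted p = 0.0010), and LAMA5 rose from 350, 155 and 204 to 621 and 366 (1.09, adjusted p = 0.039).

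LAMB3 had 1 read in each shlacZ library, 21 and 52 reads in sh4, and 2 and 3 reads in sh8. It was called higher in sh4 than in shlacZ and than in sh8, and its fold is left out because the control rests on single reads. LAMB3 passed the minimum mean of 10 only through sh4 (group means 0.98 in shlacZ, 31.3 in sh4 and 2.68 in sh8). Its calls could thus only be higher in sh4 and are a description. LAMC3 fell from 93.9, 38.8 and 58.3 to 27.1 and 12.7 (-1.63, limma adjusted p = 0.024). Under sh8 limma called 0 of the 9 laminin chains, with 2 at an unadjusted p below 0.05, 0 called by limma-voom and 1 called with the replicate block. Calls were lost without sh4 replicate 2 for LAMB1 (0.995), LAMA5 and LAMC3, without shlacZ replicate 3 for LAMC3, without either sh8 library for LAMB3 between the hairpins, and without shlacZ replicate 2, shlacZ replicate 3 or any 1 of the knockdown libraries for LAMA5. The pooled LAMB1 call was lost without any 1 of the 3 shlacZ libraries or without sh4 replicate 2.

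**Figure D4:**
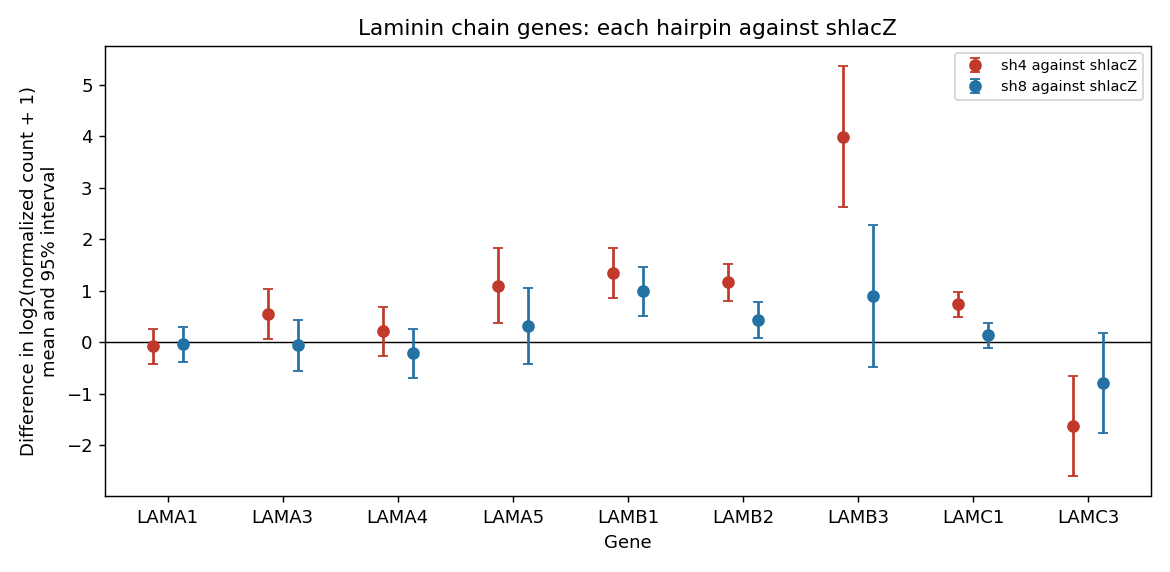
Difference from shlacZ in log2(normalized count + 1) of the 9 tested laminin chain genes under sh4 and sh8, with the 95% interval of the limma fit. LAMA5, LAMB1, LAMB2 and LAMB3 were called higher and LAMC3 lower under sh4, and the LAMB1 values lie closest together (1.34 and 0.98) among the chains called. The LAMB3 control rests on 1 read a library, and LAMB3 passed the minimum mean only through sh4.

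Among the collagens, ligands of the ITGA1, ITGA2 and ITGA10 receptors, 1 of 7 tested genes was called under sh4, beside 4.79% of all genes called higher. COL9A3, a chain of the cartilage collagen IX, rose from 158, 239 and 170 to 786 and 598 under sh4 (1.88, limma adjusted p = 0.00043) and was higher in sh4 than in sh8 (1.48, adjusted p = 0.0065), where it stood at 266 and 225. The latter call was lost without sh4 replicate 1 (adjusted p = 0.0575) or sh8 replicate 2 (adjusted p = 0.0531).

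Of 10 tested ligands of RGD-binding and other integrins, FBN1 rose under sh4 and CCN2 under sh8. FBN1, the microfibril protein fibrillin-1, rose from 5.16, 6.28 and 5.22 to 23.7 and 15.7 (1.64). It stood at 11.9 and 14.6 in sh8 (1.11, limma adjusted p = 0.24). FBN1 passed the minimum mean only through sh4, so its sh4 call could only be higher and is a description. The FBN1 call was lost without shlacZ replicate 2, shlacZ replicate 3 or sh4 replicate 2, with the replicate block (limma adjusted p = 0.0667) and with a pseudocount of 10 (0.92). CCN2, a matricellular protein, rose from 80.5, 209 and 134 to 380 and 378 under sh8 (1.52, limma adjusted p = 0.038), and stood at 227 and 273 in sh4 (0.92, adjusted p = 0.069). Both genes lay above every control library in all 4 knockdown libraries, and neither was called between the hairpins (0.52 for FBN1 and -0.60 for CCN2). The CCN2 call was lost without shlacZ replicate 3 or any 1 of the 4 knockdown libraries, where adjusted p was between 0.0743 and 0.228.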

How the data were processed

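RNA-seq of 7 libraries of 501Mel cells was read from a single deposited table of normalized counts, which the authors made by dividing reads per gene by a size factor for each library, with decimal commas. Libraries came from rRNA-depleted RNA and a stranded kit. The authors trimmed reads with cutadapt, mapped them to hg38 with STAR and quantified them with Salmon; the annotation and the strand setting were not given in the sources used here. Salmon splits shared reads by estimate, so recovered reads are rounded estimates. All values (100%, tolerance 0.01) were whole reads times a constant of the library. The table held 0 columns of other samples.

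Genes with a mean normalized count of at least 10 were tested by limma 3.58.1 (R 4.3.3; lmFit, eBayes with trend) on log2(normalized count + 1), with 3 groups for the single hairpins and 2 for the pooled comparison, and Benjamini-Hochberg adjustment over 15420 genes. The fit was tested on simulated data. Voom ran on the recovered reads. Of 21305 IDs, 21281 were found in GENCODE 44, which gave coordinates, and promoters came from RefSeq. Members and lists were chosen with earlier results of these data known. Named genes were the members, GRASLND, up to 6 called genes per list by size of difference, and the 5 genes most like ITGA10; neighbours and cell type markers were named by position or list.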

Additional observations from a re-analysis of the deposited data

Results flagged for a closer look

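The hairpins differed in 4 integrin subunits, with log2 differences of sh4 from sh8 of 5.05 for ITGA10, 2.00 for ITGA1, 1.49 for ITGA3 and 1.22 for ITGA6, given as a description because the subunits were chosen with this contrast known. Of the other adhesion genes, 4 were called between the hairpins, each higher in both sh4 libraries. CD82 differed by 3.10 (limma adjusted p = 0.011) and COL9A3 by 1.48 (adjusted p = 0.0065). ITGAX differed by 4.45, CD82 by 3.10 and LAMB3 by 3.09, given as a description because these genes passed the minimum mean only through sh4. The LAMB3 value rests on 2 and 3 reads in sh8, and with a pseudocount of 0.1 it was 3.45 and not called.

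Within the 4 knockdown libraries, a single library stood apart for 2 of 24 genes, where chance alone flags about 1 in 20. For ITGB1 the gap was 0.858 of the range, sh4 replicate 1 (3648) lying below the other 3 (5209 to 5467). For LAMB1 it was 0.965, sh4 replicate 2 (5047) lying above the other 3 (3070 to 3140).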

How the results depend on the processing

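The count of integrin subunits called under sh4 was 4 under each alternative run, and no called difference of a subunit changed sign. Under sh8 it was 1 instead of 3 with the variance trend off, 2 by limma-voom on recovered reads and with only the libraries of the 2 groups compared (ITGA10 being lost in each), and 1 to 3 when single libraries were left out. Between the hairpins it was 2 to 4 without single libraries (2 without sh4 replicate 2). With the hairpins pooled it was 0 instead of 1 with the variance trend off, by limma-voom on recovered reads and with the replicate block, and 0 to 2 without single libraries. Of the 70 other adhesion genes, 13 were called under sh4, 7 with a minimum mean of 50, 26 at any fold change, and 3 to 13 without single libraries. Under sh8 the count of 2 became 0 with the variance trend off, 1 with only the libraries of the 2 groups compared, 4 at any fold change, and 0 to 3 without single libraries. Between the hairpins the count of 4 became 1 with a minimum mean of 50, 7 at any fold change, and 1 to 5 without single libraries. With the hairpins pooled the count of 2 became 1 with the variance trend off, 4 at any fold change, and 0 to 3 without single libraries. A higher minimum mean tests fewer genes; for the other changes the cause was not tested.

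The deviations of same-numbered libraries correlated at 0.34 and 0.21 for shlacZ and sh4, 0.12 and -0.08 for shlacZ and sh8, and 0.03 for sh4 and sh8. Between shlacZ replicate 1 and sh4 replicate 2 the value was -0.34, and between shlacZ replicate 2 and sh4 replicate 1 it was -0.21. With 2 libraries in sh4 and in sh8 the deviations within each are mirror images. These values therefore cannot decide whether the replicate numbers pair the libraries. With the replicate block, 5 other adhesion genes were called under sh8 instead of 2 and 0 instead of 2 with the hairpins pooled. The block changed no other count of subunits; of the named adhesion genes it lost FBN1 under sh4 and, with the hairpins pooled, CAV1 and LAMB1. With the trend off, ITGAX, LAMA5 and LAMC3 under sh4, ITGA9 and CCN2 under sh8, ITGAX between the hairpins, and pooled CAV1 and LAMB1 were lost. Over all genes, 307 were called with the hairpins pooled, 42 with the block, 108 with the trend off, 711 at any fold change, and 58 to 538 without single libraries. Under sh8, 178 became 57 with the trend off, 451 at any fold change, and 50 to 410 without single libraries (50 without sh8 replicate 2, 410 without shlacZ replicate 1). Under sh4, 1259 became 3464 at any fold change and 763 to 1603 without single libraries, and between the hairpins 492 became 1079 and 134 to 643. Quantile and upper-quartile scaling moved the median of all genes by less than 0.1 and changed no call of a subunit, but GRASLND under sh4 fell short of the fold threshold with upper-quartile scaling (-0.972) and a pseudocount of 10 (-0.98). A planned count test by edgeR was not run. Left-out libraries leave sh4 or sh8 with 1 library, assumed to vary like the other groups. Control ITGA10 rests on 10 to 15 reads a library, which limits the precision of its fold.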
